A study of Mus musculus with 2 samples.

Results

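The genes described here are 9 standard readouts of bone morphogenetic protein (BMP) signaling, Id1, Id2, Id3, Id4, Smad6, Smad7, Bambi, Msx1 and Msx2, out of 18131 genes in the deposited tables. They were chosen by name as known BMP response genes, and all 9 were present. Single-cell RNA-Seq was performed at E9.5 on the cardiac neural crest region, dissected from the middle of the otic placode to the back of somite 4. WT embryos were Prdm6+/+; Wnt1-Cre2; ZsGreen1. KO embryos were Prdm6f/f; Wnt1-Cre2; ZsGreen1, and both were of the C57BL/6 strain. Both groups therefore carried the Wnt1-Cre2 transgene and the ZsGreen1 reporter, and only the KO embryos carried floxed Prdm6, a gene for a histone methyltransferase. Wnt1-Cre2 makes Cre in the Wnt1 lineage, the dorsal neural tube and the neural crest that leaves it. No sort was described, and cells outside the Wnt1 lineage, in which Cre is not made, were captured with them. Embryos were pooled, and cells were not assigned to embryos here.

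BMP ligands bind paired type I and type II receptors, which phosphorylate Smad1, Smad5 and Smad9. These Smads enter the nucleus with Smad4 and switch on a small set of direct targets. Id proteins bind basic helix-loop-helix factors and keep them off DNA, which holds back differentiation. Smad6, Smad7 and the pseudoreceptor Bambi act as feedback inhibitors of the receptors, and Msx1 and Msx2 are homeobox repressors. In the embryo at this age BMPs from the roof plate pattern the dorsal neural tube and its neural crest, and BMPs of the heart field support cardiac development.

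Each genotype was represented by 1 library. The differences given are therefore without a replicate check or a test, and no gene is called changed. Median depth was 1597 unique molecular identifiers (UMIs) over 11958 WT cells and 1703 UMIs over 9765 KO cells. The libraries shared 26 cell barcodes, 0.217% of WT and 0.266% of KO barcodes. Prdm6 had 104 UMIs in WT and 59 in KO. Levels are UMIs per 1000000 UMIs (CPM) of a library, or of a cell type in that library. Brackets give exact Poisson intervals of 95% for levels and exact conditional intervals of 95% for the log2 ratio of KO over WT. These intervals cover counting error only. The 3′ protocol counts molecules and not length, and levels were compared across cells of 1 gene rather than between genes.

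Cells were assigned to types by 8 markers each, and a cell joined the type of which it held the most markers if these were at least 3. Of 20 types, 10 had at least 50 cells in both libraries. These were cardiac muscle-like (2701 WT and 2469 KO cells), head mesenchyme-like (613 and 468), erythroid-like (542 and 205), neural progenitor-like (397 and 379), endothelial-like (324 and 268), migrating neural crest-like (241 and 195), splanchnic mesoderm-like (186 and 97), floor plate-like (94 and 95), neuron-like (87 and 82) and dorsal neural tube-like (59 and 57) cells. Among the 10 leading genes of each type, 3 to 8 were its own markers and at most 1 was a marker of another type. No type could be assigned to 54.0% of WT and 53.2% of KO cells. The label of the samples is cardiac neural crest cells, whereas migrating neural crest-like cells made up 2.02% of the WT and 2.00% of the KO library.

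The types were loosely bounded. Between 61.1% and 94.7% of the cells of a type held at least 2 markers of a second one. RNA of cardiac muscle markers was found in every type, with a summed level of 605 to 1081 CPM outside the cardiac muscle-like cells. Even among erythroid-like cells, 14.2% in WT and 17.6% in KO held at least 3 of the 8 cardiac markers, though none held more than 5. The cardiac muscle-like type was therefore also read in its 695 WT and 406 KO cells with at least 6 cardiac markers, a threshold set after the data were seen, called strict cardiac muscle-like below. Erythroid-like cells are used as the background class for the members. In them RNA set free by other cells, droplets with 2 cells and the cells' own expression of the members were not told apart. In the 9 other types the 8 erythroid markers summed to 481 to 857 CPM in WT and 179 to 505 CPM in KO, lower in KO in each, and the part of this in the values below was not tested.

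The promoters are shown for the members whose start region held the letters of a Smad-binding element, either the GC-rich BMP-type GGCGCC or the general palindrome GTCTAGAC. Both motifs read the same on either strand and do not overlap each other. RefSeq (GRCm38.p6) windows from 250 bases before to 50 bases after the start were found for 6 of the 9 members, Id2, Id3, Id4, Smad6, Msx1 and Msx2. GGCGCC occurred in 2 of the 6 and in 11.9% of all 32851 windows, and GTCTAGAC in 1 of the 6 and in 0.213% of all windows. Each stretch below has 30 bases, with the motif in capitals.
Id2, chr12:25096305-25096334, minus strand, motif from base -231 to -226: caggccccctgGGCGCCcagcgcacactgt
Id4, chr13:48260957-48260986, plus strand, motif from base -148 to -143: tcgggttgcccGGCGCCccgccctcgccac
Smad6, chr9:64022045-64022074, minus strand, motif from base -4 to 4 across the start: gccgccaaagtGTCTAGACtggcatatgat
Bases are counted from the RefSeq start. These letter matches are a description of the windows, and binding at them was not measured.

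The question of the comparison was whether loss of Prdm6 in the Wnt1 lineage was accompanied by other levels of BMP response genes. Over all cells, Bambi was the member that differed most, at 65.3 CPM in WT (1356 UMIs, 61.8 to 68.8) and 37.3 CPM in KO (706 UMIs, 34.6 to 40.1). This was 1.75-fold lower in KO, a log2 ratio of -0.81 (-0.94 to -0.68), and it ranked 126th from the lowest of 11744 genes with at least 100 UMIs over both libraries. Bambi was the only 1 of the 9 members at least 1.5-fold lower in KO, a fold passed by 2.75% of all these genes and, without the minimum of UMIs, by 11.3% of genes. No member was 1.5-fold higher, compared with 0.613% of all genes. The median log2 ratio was -0.18 over the 9 members and -0.06 over all genes, so most members lay within the bulk of the transcriptome. Sums over a whole library do not tell fewer cells of a type from less RNA per cell.

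**Figure D1:**
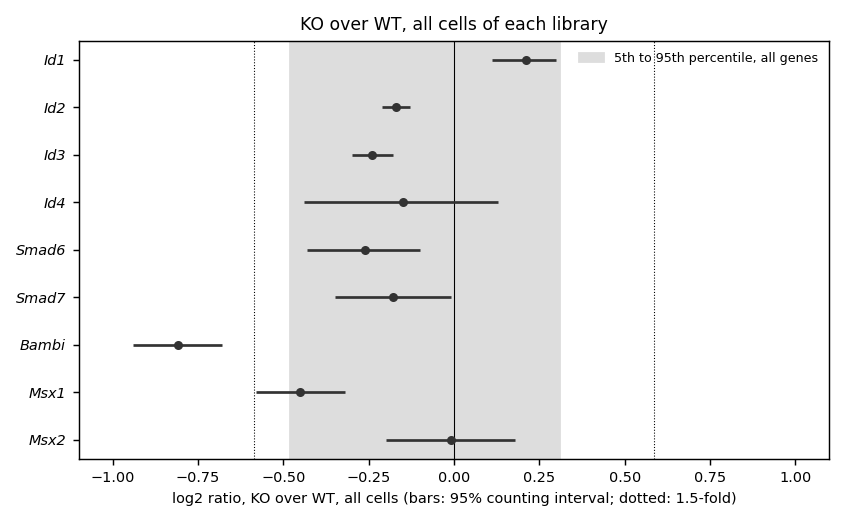
Log2 ratio of KO over WT for the 9 members over all cells of each library (x axis), with 95% counting intervals as bars, the 5th to 95th percentile of 11744 genes in grey (-0.48 to 0.31) and 1.5-fold as dotted lines. Bambi at -0.81 lay outside the grey band and Id1 at 0.21 was the only member to the right of 0.

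The other members split in direction. Id1 was higher in KO, at 89.5 CPM in WT and 103 CPM in KO, a log2 ratio of 0.21 (0.11 to 0.30). The other Id genes were lower in KO or had intervals across 0. Id2 had 577 CPM in WT and 513 CPM in KO, a log2 ratio of -0.17 (-0.21 to -0.13). Id3 had 220 CPM in WT and 187 CPM in KO, a log2 ratio of -0.24 (-0.30 to -0.18). Id4, the rarest member, had 10.9 CPM in WT and 9.82 CPM in KO, with an interval across 0 (-0.44 to 0.13). Of the inhibitory Smads, Smad6 had a log2 ratio of -0.26 (-0.43 to -0.10) and Smad7 of -0.18 (-0.35 to -0.01). Msx1 came second to Bambi, with 59.9 CPM in WT and 43.8 CPM in KO, a log2 ratio of -0.45 (-0.58 to -0.32). Msx2 had nearly the same level in both, 22.6 and 22.4 CPM, with a log2 ratio of -0.01 (-0.20 to 0.18). The intervals of the paired homeobox genes did not overlap. With the 10 types weighted equally, Smad7 (0.27) and Id4 (0.24) turned to higher in KO. Msx1 at -0.87 was then lower than Bambi at -0.78, so the order of these members turned. Types with few UMIs count in full under these weights. Smad7 had 0 UMIs in WT and 4 in KO dorsal neural tube-like cells, and Id4 had 1 and 4 in floor plate-like cells. Among types with a log2 ratio, Smad7 was higher in KO in 5 of 9 and Id4 in 3 of 9.

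The cells of the KO library were deeper, so the levels were also read in 5 bins of UMIs per cell, cut at equal numbers of cells over both libraries together, an alternative chosen after the data were seen. Bambi was lower in KO in 5 of 5 bins, with log2 ratios from -1.02 to -0.74. Id1 was higher in KO in 5 of 5 bins, with log2 ratios from 0.10 to 0.37, although its level was lower in deeper cells in both libraries. Id2 was higher in deeper cells. Below 1180 UMIs it had 429 CPM in WT and 340 CPM in KO, and from 2421 UMIs it had 641 and 616 CPM. Its log2 ratio ranged from -0.51 to -0.06 across the bins. Msx1 was lower in KO in 5 of 5 bins, from -0.63 to -0.34.

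**Figure D2:**
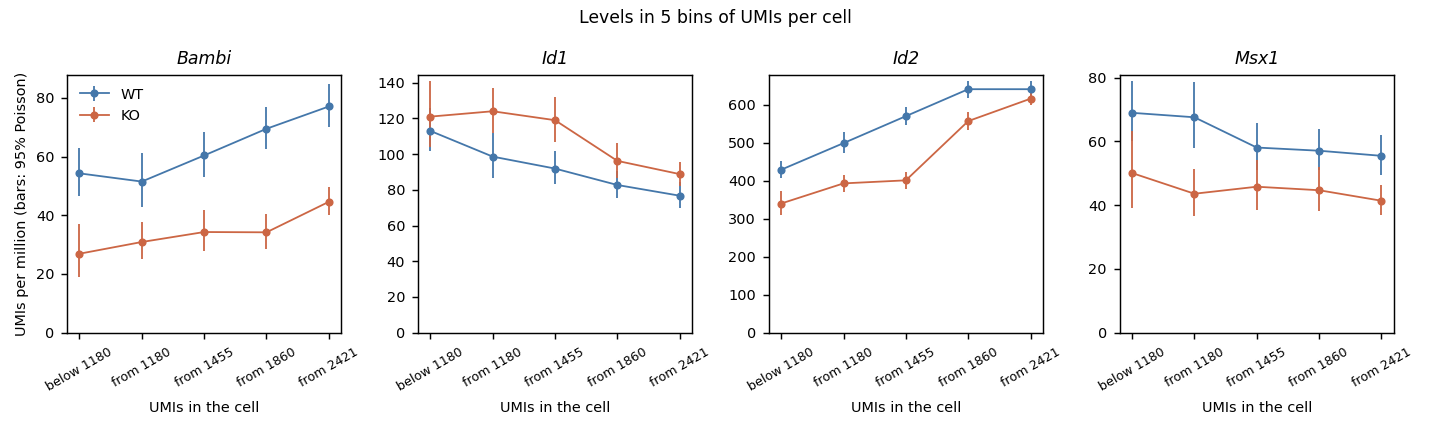
Level in CPM (y axis, from 0) of Bambi, Id1, Id2 and Msx1 in 5 bins of UMIs per cell (x axis) for WT (blue) and KO (orange), with 95% Poisson intervals as bars. WT lay above KO in every bin for Bambi, Id2 and Msx1, and below it in every bin for Id1.

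Across cell types the members had distinct patterns. Msx1 was the most restricted. It had 654 CPM (520 to 812) in WT and 311 CPM (227 to 416) in KO dorsal neural tube-like cells. The next type in both libraries was neural progenitor-like, with 59.5 CPM in WT and 49.3 CPM in KO, and the intervals were far apart. Erythroid-like cells had 31.6 CPM in WT and 15.4 CPM in KO, and migrating neural crest-like cells had 30.7 and 24.6 CPM, whose intervals overlapped those of erythroid-like cells. Msx1 in migrating neural crest-like cells thus did not differ from the background class beyond counting error. Arch mesenchyme-like cells, the ectomesenchyme of the pharyngeal arches, could be read only when 2 markers sufficed, and there Msx1 had 80.9 CPM (41.8 to 141) in WT and 83.0 CPM (49.2 to 131) in KO. Among the 10 types Msx2 was also highest in dorsal neural tube-like cells, at 55.9 and 48.3 CPM, but rested on 7 UMIs in each library. Arch mesenchyme-like cells with 2 markers had 94.3 CPM of Msx2 in WT (14 UMIs) and 83.0 CPM in KO (18 UMIs), and the 10 types under that gate reached at most 44.3 and 53.0 CPM.

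Id3 was also highest in dorsal neural tube-like cells in both libraries, and Id2 was among its highest there in WT. Id3 had 622 CPM in WT and 394 CPM in KO dorsal neural tube-like cells, and 429 and 374 CPM in floor plate-like cells, with overlapping intervals. Endothelial-like cells came next with 356 and 336 CPM. Erythroid-like cells had 87.0 and 82.8 CPM of Id3, and neuron-like cells were similar, at 97.4 and 123 CPM. Id2 was high in dorsal neural tube-like cells (1077 CPM in WT, 615 CPM in KO) and in splanchnic mesoderm-like cells (925 CPM in WT, 918 CPM in KO), the mesoderm around the foregut and heart. In KO its interval in splanchnic mesoderm-like cells, 800 to 1048 CPM, lay above those of the 9 other types. Floor plate-like cells, high in Id3, were low in Id2, at 278 and 180 CPM.

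**Figure D3:**
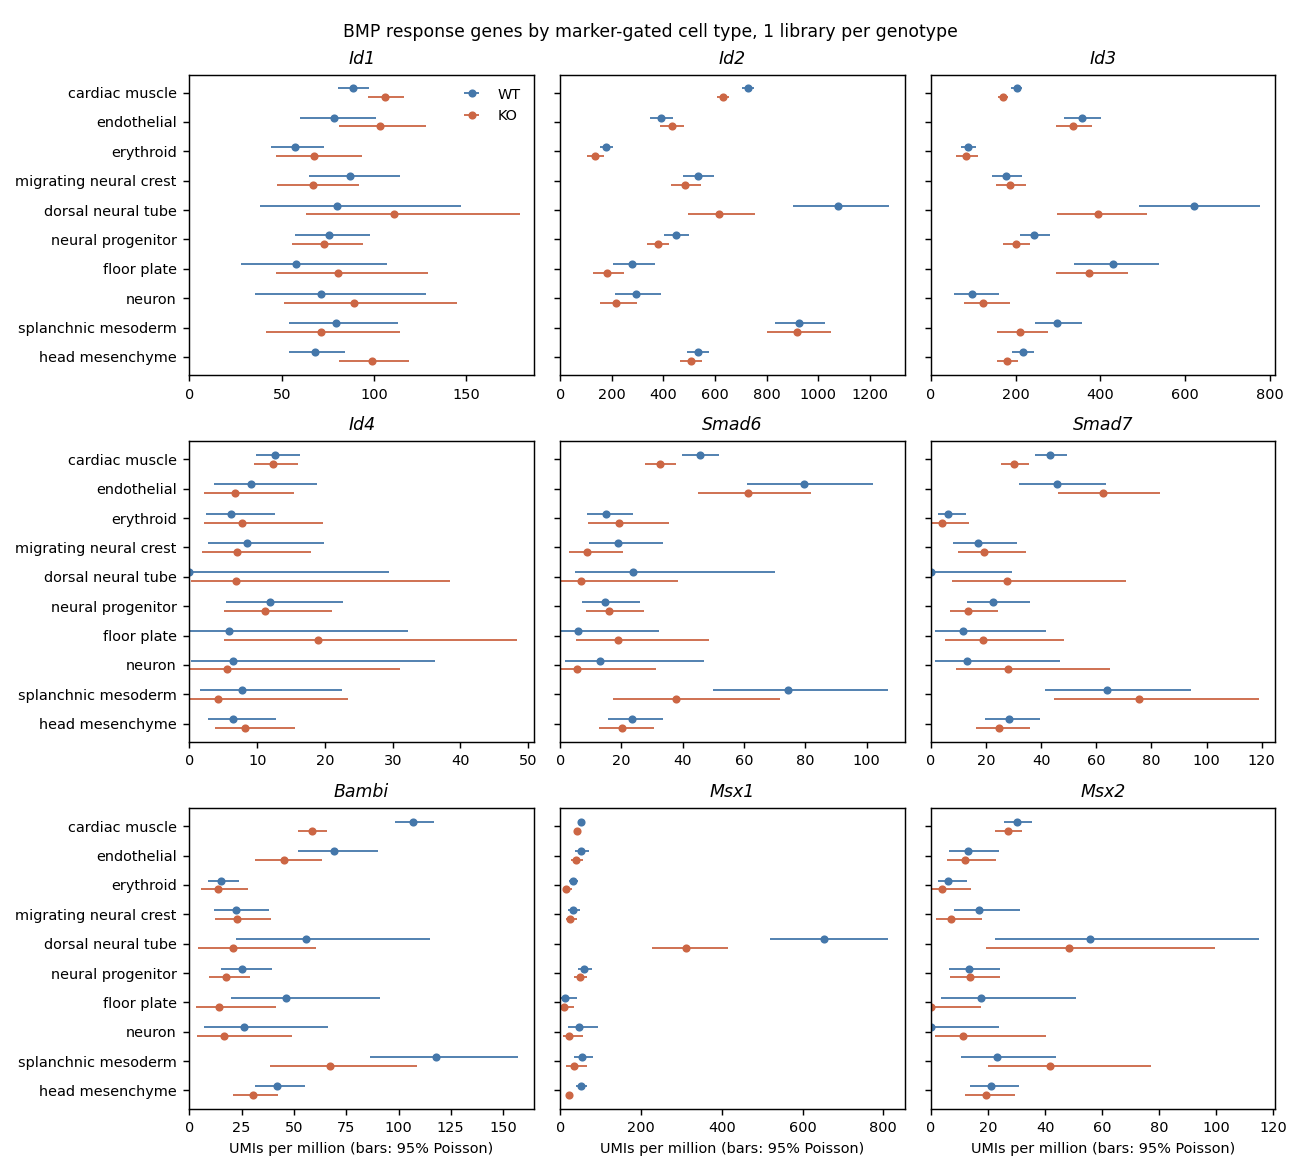
Level in CPM (x axis, each panel with its own scale from 0) of the 9 members in 10 marker-gated types (y axis) for WT (blue) and KO (orange), with 95% Poisson intervals as bars. Msx1 stood apart in dorsal neural tube-like cells, Bambi was highest in splanchnic mesoderm-like and cardiac muscle-like cells, and Id1 differed little between types.

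Id1 showed almost no cell type pattern over the 10 types. Its 20 levels, 10 types in each library, ran from 57.1 to 111 CPM, and the lowest, 57.1 CPM, was that of WT erythroid-like cells. In KO erythroid-like cells it had 67.4 CPM. Levels of Id1 in WT and KO had a Pearson correlation of 0.28 over the 10 types (a description on log2(CPM + 10)), compared with 0.97 for Msx1, 0.96 for Id3 and 0.94 for Id2. When 2 markers sufficed, there were 77 WT and 92 KO arch mesenchyme-like cells. There Id1 had 155 CPM (98.2 to 233) in WT and 203 CPM (147 to 272) in KO. Smooth muscle-like cells under the same gate, of whose 10 leading genes 2 were their own markers, had 166 CPM (113 to 234) of Id1 in WT and 92.6 CPM (54.9 to 146) in KO. With 2 markers the 10 types ranged from 58.7 to 92.7 CPM in WT and from 63.7 to 112 CPM in KO. Id4 stayed between 0 and 18.9 CPM in every type, with at most 9 UMIs per library outside cardiac muscle-like cells, and no pattern could be read at this depth.

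The feedback inhibitors had the same 3 leading types. Endothelial-like, splanchnic mesoderm-like and cardiac muscle-like cells held the highest levels of Smad6, Smad7 and Bambi in both libraries. Smad6 was highest in endothelial-like cells, at 79.6 CPM (60.9 to 102) in WT and 61.3 CPM (44.9 to 81.7) in KO. The level depended on the gate, with 37.6 CPM in WT with the gate on cells thinned to 1000 UMIs and 21.1 CPM in KO without cells that held 2 or more markers of a second type. Splanchnic mesoderm-like cells had 74.3 and 37.7 CPM of Smad6, with intervals that overlapped the endothelial ones. Its level in erythroid-like cells was 14.9 CPM in WT and 19.2 CPM in KO. Smad7 had 64.0 and 75.5 CPM in splanchnic mesoderm-like cells and 45.7 and 62.6 CPM in endothelial-like cells. Its level in erythroid-like cells was 6.15 CPM in WT and 3.85 CPM in KO. Bambi had 118 CPM (86.3 to 157) in WT and 67.1 CPM (38.3 to 109) in KO splanchnic mesoderm-like cells, and 107 and 58.5 CPM in cardiac muscle-like cells. Its levels in migrating neural crest-like cells, 22.2 and 22.9 CPM, were close to those in erythroid-like cells, 14.9 and 13.5 CPM.

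Bambi, Id2 and Smad7 were higher in cells with more cardiac muscle markers, in both libraries, and Smad6 in WT. Strict cardiac muscle-like cells were also deeper, with medians of 2344 UMIs in WT and 3052.5 in KO, beside 1642 and 1675 in the whole type. Over all cells Bambi went from 54.3 CPM below 1180 UMIs to 77.1 CPM from 2421 UMIs in WT, and from 26.9 to 44.6 CPM in KO. The part of depth in the levels by marker number was not tested. Bambi had 45.6 CPM in WT and 24.9 CPM in KO cells without a cardiac marker, and 171 and 125 CPM in cells with all 8. Over the same range Id2 went from 519 to 898 CPM in WT and from 457 to 1101 CPM in KO. Smad7 went from 29.0 to 56.3 CPM in WT and from 27.4 to 62.7 CPM in KO. Smad6 went from 25.4 to 68.3 CPM in WT. In KO it had 24.4 CPM without a cardiac marker, 31.9 CPM with 5, 79.9 CPM with 6 and 41.8 CPM with all 8, and the intervals of the first and last overlapped. Id3 and Msx1 went the other way. Id3 had 223 CPM in WT cells without a cardiac marker and 109 CPM in those with all 8, and Msx1 had 57.5 and 30.1 CPM. In strict cardiac muscle-like cells Msx1 was at 25.2 CPM in WT and 11.7 CPM in KO, no higher than in erythroid-like cells, whereas Msx2 kept 35.4 and 33.4 CPM, compared with 6.15 and 3.85 CPM in erythroid-like cells.

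**Figure D4:**
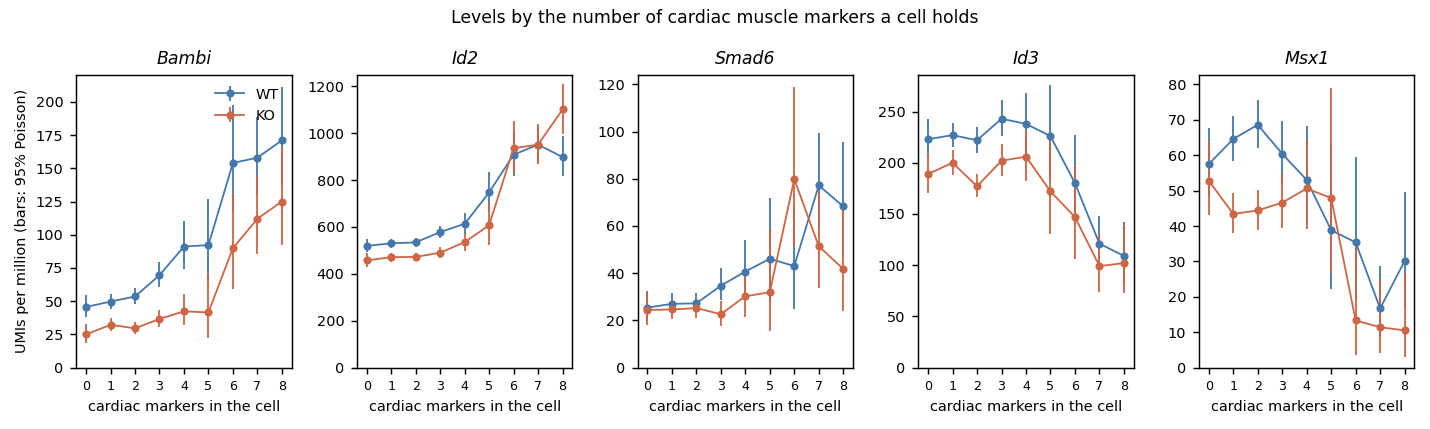
Level in CPM (y axis, from 0) of Bambi, Id2, Smad6, Id3 and Msx1 by the number of 8 cardiac muscle markers with a UMI in the cell (x axis), for WT (blue) and KO (orange), with 95% Poisson intervals as bars. Bambi was lower in KO at each of the 9 numbers of markers, and Id2 was lower in KO at 0 to 5 markers but not at 6 to 8. Strict cardiac muscle-like cells were also deeper than the whole type.

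Within types, 30 values had at least 100 UMIs over both libraries, and 4 of them were at least 1.5-fold apart, all lower in KO. In dorsal neural tube-like cells, a Wnt1-expressing population, all 3 members with enough UMIs, Id2, Id3 and Msx1, passed this fold, compared with 8.65% of the 474 genes tested there. Msx1 was 2.11-fold lower in KO (82 and 45 UMIs), a log2 ratio of -1.07 (-1.63 to -0.53). Id2 was 1.75-fold lower, a log2 ratio of -0.81 (-1.21 to -0.41), and Id3 was 1.58-fold lower, a log2 ratio of -0.66 (-1.18 to -0.15). After each cell was thinned to 1000 UMIs, Id2 was detected in 69.5% of WT cells (exact binomial interval of 95%, 56.1% to 80.8%) and 39.3% of KO cells (26.5% to 53.2%). Msx1 was detected in 37.3% of WT (25.0% to 50.9%) and 23.2% of KO cells (13.0% to 36.4%), and in 2.28% and 1.96% of erythroid-like cells. These intervals, too, cover only the counting error within 1 library per genotype.

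These dorsal values rest on 59 WT and 57 KO cells. When 2 markers sufficed, Msx1 kept the fold with a log2 ratio of -0.90, whereas Id2 at -0.45 and Id3 at -0.57 did not reach it. The markers that defined the cells moved in part with them. The 4 roof plate markers Wnt1, Wnt3a, Lmx1a and Rspo1 had log2 ratios from -0.65 to -0.44, whereas Olig3, Zic1, Zic4 and Pax7 had log2 ratios from -0.24 to 0.21. Of these 8 only Wnt1 had an interval wholly below 0 (-0.98 to -0.08). Wnt3a, Lmx1a and Rspo1 had at most 20 UMIs per library and intervals across 0. The summed level of the 8 markers was 2921 CPM in WT and 2390 CPM in KO, and none was at 0. Of these cells, 76.3% in WT and 94.7% in KO held 2 or more markers of a second type. The 8 neural progenitor markers summed to 742 CPM in WT and 753 CPM in KO, none at 0, but Hes5 was lower in KO (log2 ratio -2.67, -5.88 to -0.47) and Fabp7 higher (1.63, 0.38 to 3.08). The 8 erythroid markers summed to 527 CPM in WT and 200 CPM in KO in these cells. The median depth was 1989 UMIs in WT and 2539 in KO. The part of this make-up in the lower Msx1, Id2 and Id3 was not tested.

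In cardiac muscle-like cells all 9 members could be compared, and Bambi alone passed the fold, compared with 4.31% of genes. It was 1.83-fold lower in KO, a log2 ratio of -0.87 (-1.09 to -0.66). Under other gates, on fewer UMIs, Smad7 reached -0.87 (-1.73 to -0.03) without cells that held 2 or more markers of a second type, and Id4 reached -0.69 (-1.74 to 0.29) with the gate on cells thinned to 1000 UMIs. In strict cardiac muscle-like cells the difference was smaller, with 161 CPM in WT and 112 CPM in KO, a log2 ratio of -0.52 (-0.83 to -0.22). There 0 of 6 members with at least 100 UMIs passed the fold, against 5.15% of genes, and Msx1, below that minimum with 42 and 14 UMIs, had a log2 ratio of -1.11 (-2.10 to -0.21). Strict cells were 25.7% of the cardiac muscle-like cells in WT and 16.4% in KO, and the summed cardiac marker level of the type was 12324 CPM in WT and 8833 CPM in KO. The type in KO thus held a smaller share of cells with many cardiac markers, and the part of this in the Bambi value was not tested. Bambi was also lower in KO cells without a cardiac marker, where its log2 ratio was -0.87 (-1.38 to -0.38) and in cells of no type, where it was -0.94 (-1.16 to -0.73). Id2 went from -0.20 (-0.27 to -0.13) in all cardiac muscle-like cells to 0.11 in the strict ones, with an interval that reached 0 (-0.00 to 0.22). The strict cells had a median depth of 2344 UMIs in WT and 3052.5 in KO. Id2 was higher in deeper cells, and the part of depth in this value was not tested.

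**Figure D5:**
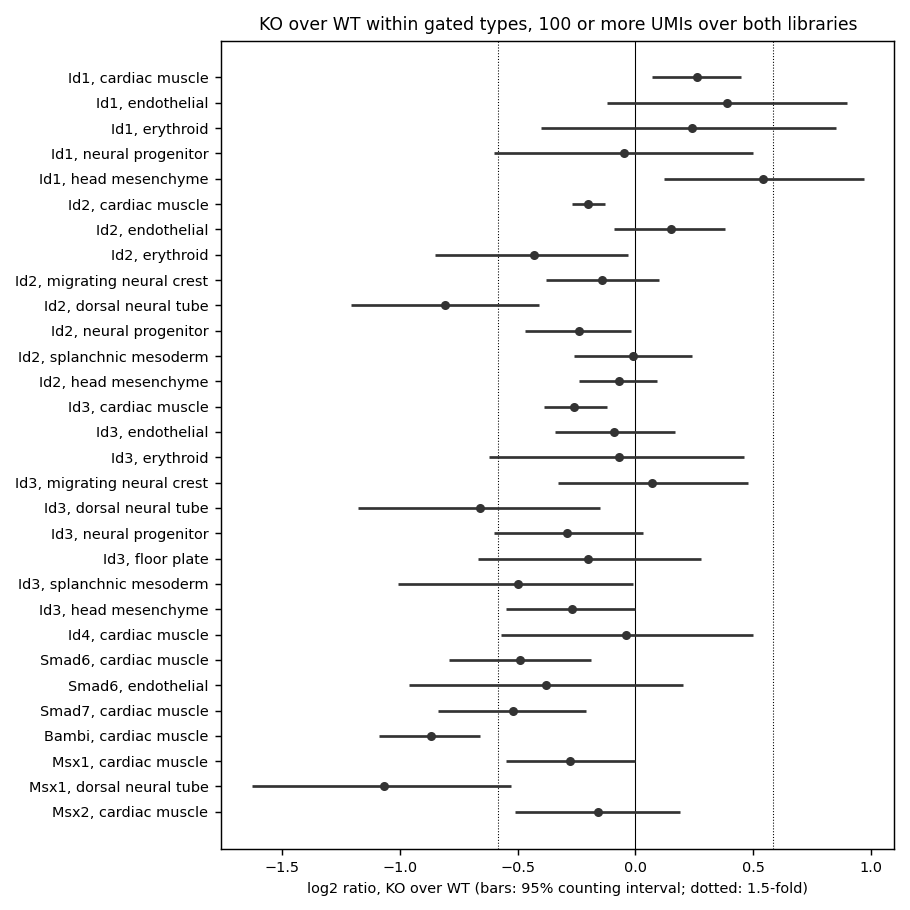
Log2 ratio of KO over WT (x axis) for each of the 30 combinations of member and type with at least 100 UMIs over both libraries (y axis), with 95% counting intervals as bars and 1.5-fold as dotted lines. The values past 1.5-fold were Bambi in cardiac muscle-like cells and Id2, Id3 and Msx1 in dorsal neural tube-like cells.

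With the gate of 3 markers no member reached the fold in the other types. The counts were 0 of 4 in endothelial-like cells (5.68% of genes passed), 0 of 3 in erythroid-like cells (6.91%), 0 of 2 in migrating neural crest-like cells (5.32%), 0 of 3 in neural progenitor-like cells (5.01%), 0 of 1 in floor plate-like cells (6.91%), 0 of 2 in splanchnic mesoderm-like cells (5.95%) and 0 of 3 in head mesenchyme-like cells (4.04%). In neuron-like cells, where 6.7% of genes passed, no member had 100 UMIs. Migrating neural crest-like cells are another Wnt1-lineage population. There Id2 had 534 CPM in WT and 485 CPM in KO, a log2 ratio of -0.14 (-0.38 to 0.10). Id3 had 177 and 186 CPM, a log2 ratio of 0.07 (-0.33 to 0.48). Neither counting interval reached down to a 1.5-fold lower level in KO. Arch mesenchyme-like cells, read with 2 markers, had Id2 at 519 CPM in WT and 650 CPM in KO. The log2 ratio there was 0.33 (-0.08 to 0.75) for Id2 and -0.07 (-0.63 to 0.49) for Id3. Other gates, read here without a minimum of UMIs, moved some of these values. The log2 ratio of Id1 in endothelial-like cells went from 0.39 to 0.91 with 4 markers (29 and 52 UMIs), and in neural progenitor-like cells from -0.05 to 1.67 with the gate on cells thinned to 1000 UMIs (7 and 16 UMIs). The log2 ratio of Smad6 in endothelial-like cells, -0.38, went to 0.50 with the gate on thinned cells and to -2.09 (18 and 4 UMIs) without cells that held 2 or more markers of a second type, so its direction was not settled. Without those cells Id3 in head mesenchyme-like cells had a log2 ratio of -0.67 (74 and 38 UMIs), Id1 there at 0.68 and Id1 in erythroid-like cells at -0.76. Neural progenitor-like cells had Id2 at 449 and 379 CPM and Id3 at 243 and 200 CPM. The log2 ratio of Id3 there went from -0.29 to -0.61 with the gate on thinned cells (49 and 23 UMIs).

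Below the minimum of 100 UMIs, head mesenchyme-like cells had 64 UMIs of Msx1 in WT and 23 in KO, or 51.8 and 21.0 CPM, a log2 ratio of -1.30 (-2.05 to -0.59). Msx1 was lower in KO in 10 of 10 types, erythroid-like cells included, where the log2 ratio was -1.04 (-2.36 to 0.09). The interval of Msx1 lay wholly below 0 in 2 of these 10 types, and floor plate-like cells held only 2 UMIs of it in each library. Msx1 was not lower in the 3 further types read with 2 markers. The log2 ratio was 0.04 in arch mesenchyme-like, 0.27 in smooth muscle-like and 0.64 in sclerotome and somite-like cells. Each rested on at most 18 UMIs per library, with an interval across 0. Id1 in head mesenchyme-like cells had 68.0 CPM in WT and 98.8 CPM in KO, a log2 ratio of 0.54 (0.12 to 0.97). It was higher in KO in 7 of 10 types, and its interval lay above 0 in 2 of them and below 0 in 0. Bambi was lower in KO in 9 of 10 types, with migrating neural crest-like cells (log2 ratio 0.04, -1.18 to 1.27) as the exception, but only the cardiac muscle-like interval lay wholly below 0.

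The rest of the pathway was described over all cells by lists of ligands, receptors, Smads, antagonists and other reported response genes. Of all genes, 2.75% were at least 1.5-fold lower and 0.613% at least 1.5-fold higher in KO. Among ligands, 0 of 5 with enough UMIs passed 1.5-fold, and their median log2 ratio was -0.36. Bmp4, Bmp5 and Bmp7 were lower in KO, with log2 ratios of -0.38 (-0.52 to -0.24), -0.36 (-0.55 to -0.17) and -0.39 (-0.57 to -0.22), and Bmp2 was at -0.02 (-0.17 to 0.14). In cardiac muscle-like cells these 4 ligands had log2 ratios from -0.58 for Bmp7 to -0.22 for Bmp2, beside a median of -0.05 over all genes tested there. In strict cardiac muscle-like cells all 4 intervals reached across 0, with log2 ratios from -0.24 for Bmp7 to 0.24 (-0.02 to 0.49) for Bmp2. Among receptors 0 of 7 passed, with a median of 0.10, and among the signal-transducing Smads 0 of 4, with a median of 0.12. Smad4, the shared partner, had 108 CPM in WT and 125 CPM in KO, a log2 ratio of 0.22 (0.13 to 0.30), a direction opposite to that of Smad6.

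The genes listed as antagonists had 0 of 7 past the fold and a median of -0.01, but they diverged. Nog was lower in KO, with a log2 ratio of -0.42 (-0.73 to -0.11), and Grem1 was higher, with a log2 ratio of 0.51 (0.27 to 0.75). Of 9 other response genes, 1 was past the fold in each direction, where 2.75% of all genes were lower and 0.613% higher. Hand1, a basic helix-loop-helix factor of the heart, had 19.0 CPM in WT and 10.0 CPM in KO, a log2 ratio of -0.92 (-1.18 to -0.67). In strict cardiac muscle-like cells it had 49.8 and 45.9 CPM, a log2 ratio of -0.12 (-0.64 to 0.39). In all cardiac muscle-like cells the log2 ratio was -0.80 (-1.19 to -0.42), in head mesenchyme-like cells it was -1.91 (-3.94 to -0.29), and its 16 UMIs in WT splanchnic mesoderm-like cells stood against 0 in KO. Dlx3, a homeobox gene of the ectoderm, had 3.08 and 5.02 CPM, a log2 ratio of 0.70 (0.23 to 1.18). Tbx2, a T-box repressor of the heart, was at -0.47 (-0.71 to -0.23). The median of these 9 genes was 0.06.

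Genes with the most similar pattern over the 20 combinations of type and library were sought among genes with at least 500 UMIs. Msx1 was closest to Zic5, Olig3 and Fzd10 (Pearson r 0.86, 0.85 and 0.83), 3 genes of the dorsal tube, of which Olig3 also served to define the dorsal type. Bambi was closest to Gata4 (0.87), a factor of the heart and splanchnic mesoderm that was also a type marker, then to Asb4 (0.86) and Gm26632 (0.85). Smad6 was closest to Furin (0.91), a protease that processes BMP precursors, then to Plagl1 (0.91) and Nfib (0.88). Smad7 was closest to Igf2r (0.88), Wwc2 (0.87) and Spats2l (0.86). Id3 was closest to Pea15a (0.89), Ext1 (0.87) and Fndc3b (0.87), and Id2 to Fbn2 (0.85), B4galt6 (0.84) and Ugdh (0.84). For Msx2 the second closest of all genes was Id2 (0.82), after Wfikkn1 (0.84) and before Aprt (0.81). Id1 and Id4 had weaker partners, Phax, Gpx7 and Zfp608 at 0.71, 0.70 and 0.69 for Id1, and Ears2, Alkbh7 and Zfand1 at 0.80, 0.80 and 0.77 for Id4. These points share libraries and depth, and Id4 rests on 413 UMIs.

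In single cells most pairs of members were found together about as often as their shares in each type and library predict. Of 36 pairs, 19 were expected together in at least 20 cells thinned to 1000 UMIs, and for 3 the observed number over the expected had an interval above 1. Id2 and Smad7 met in 140 cells where 98.5 were expected, a ratio of 1.42 (1.20 to 1.68). Id3 and Msx1 met in 100 cells where 77.3 were expected, a ratio of 1.29 (1.05 to 1.57), and Id2 and Smad6 in 140 where 114 were expected, a ratio of 1.23 (1.04 to 1.46). Of these 3 pairs, only Id2 and Smad7 had an interval above 1 in each library. For Id2 and Smad6 it lay above 1 in KO, at 1.47 (1.12 to 1.89), and not in WT (0.87 to 1.37), and for Id3 and Msx1 in WT, at 1.32 (1.01 to 1.69), and not in KO, at 1.26 (0.90 to 1.72). In cardiac muscle-like cells Id2 and Smad7 met in 43 WT cells (34.1 expected) and 36 KO cells (23.3 expected). Both genes were higher in cells with all 8 cardiac markers than in cells without one. The part of such differences within a type in these ratios was not tested. Id2 and Id3, the most frequent pair, met in 613 cells where 597 were expected, a ratio of 1.03 (0.95 to 1.11). With all UMIs in place of thinned cells, 32 pairs met the minimum of 20 expected cells, and 20 of these pairs were above 1. The cause of this move was not tested. The mean number of members per thinned cell was highest in dorsal neural tube-like cells, at 1.71 in WT and 1.14 in KO, and lowest in erythroid-like cells, at 0.38 in both. Of dorsal neural tube-like cells, 8.47% in WT and 26.8% in KO held none of the 9 members.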

How the data were processed

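Per the file headers and the study's methods, each of 2 libraries was deposited as a table of cells by genes. The authors counted UMIs with Cell Ranger 1.3.1, normalized each cell to its library size and took the square root, so the deposited values are a transformed signal and not counts (processing notes: mm10, Scanpy). The methods name a human genome as reference, whereas the symbols are those of mouse. Squares summed to 1641 in every cell. UMIs were recovered as each square over the smallest square of the cell, and 100% were whole within 0.01. Doublets were removed by the authors with a caller, and whether before deposit was not stated.

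The 9 members, the pathway lists and the markers were chosen with earlier results of these data known. Named genes were the members, the genes of these lists and, per member, the 3 genes with the highest Pearson correlation of log2(CPM + 10) over type and library, among genes with at least 500 UMIs. Cells joined a type by at least 3 of 8 markers, more than of any other type. Thinning to 1000 UMIs (seed 1) left out 1361 WT and 125 KO cells. Intervals were tested on simulated counts. Listed genes without a column were left out. Analyses used Python 3.11.15, numpy 2.4.6 and scipy 1.17.1.

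Alternatives were other scalings, minimums of UMIs, thinning, equal weights of types and other gates. Depth bins, numbers of cardiac markers and the strict cardiac gate were added after seeing the data.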

Additional observations from a re-analysis of the deposited data

How the results depend on the processing

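Each genotype had 1 library, so leaving out a replicate was not possible. No paired analysis was possible because each genotype had 1 library. Of 184 recomputed log2 ratios of single members, 155 stayed within the counting interval of the value reported, 27 left it, and 2 whose interval lay on 1 side of 0 changed sign. With types weighted equally, Smad7 over all cells was at 0.27 in place of -0.18, and 2 members in place of 1 were at least 1.5-fold lower, Bambi and Msx1. Types with few UMIs count in full under these weights. With at least 6 cardiac markers, Id2 in cardiac muscle-like cells was at 0.11 (-0.00 to 0.22) in place of -0.20. Without a minimum of UMIs, 11.3% of all genes were at least 1.5-fold lower over all cells, in place of 2.75%. Past 1.5-fold within types, in place of 4 of 30 values, were 2 of 30 with 2 markers, 3 of 24 with 4 markers, 4 of 24 with the gate on thinned cells, and 6 of 22 without cells that held 2 or more markers of a second type, all without a minimum of UMIs, and Bambi in cardiac muscle-like cells was among them each time. With 6 cardiac markers and the minimum kept it was 3 of 27, which leaves out Msx1 at -1.11 in those cells.

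Levels moved with the gate. Msx1 in WT dorsal neural tube-like cells was 515 CPM with 2 markers. Smad6 in endothelial-like cells was 60.5 CPM in WT and 57.6 CPM in KO with 4 markers, 37.6 and 53.2 CPM with the gate on thinned cells (log2 ratio 0.50), and 90.2 and 21.1 CPM without cells that held 2 or more markers of a second type (log2 ratio -2.09). Bambi in cardiac muscle-like cells was 96.7 CPM in WT and 51.3 CPM in KO with 2 markers, 129 and 74.7 CPM with 4, 161 and 112 CPM with 6, and 71.3 and 41.6 CPM without cells that held markers of a second type. With all UMIs in place of thinned cells, 20 pairs in place of 3 were found together more often than expected. The cause of these moves was not tested. Gates of 4 markers, on thinned cells or without second types left too few dorsal neural tube-like cells, so no value is given there. Depth limits Id4 and Msx2 in the small types, where most values rest on fewer than 10 UMIs.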
